A study of Caenorhabditis elegans with 2 samples.

Results

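Ribosomal protein genes encode the proteins that, together with ribosomal RNA, build the large and the small subunit of the cytoplasmic ribosome. They were taken as every protein-coding gene of the RefSeq WBcel235 annotation whose symbol starts with rpl- (large subunit) or rps- (small subunit). This gave 78 genes of 19983 protein-coding genes, 48 for the large and 30 for the small subunit. The question was where SNPC-4 regions lie at these genes, and whether small RNA genes in their introns lie close enough to account for such regions.

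In nematodes the protein SNPC-4 contacts DNA on behalf of the complex SNAPc, which sits on a short promoter element ahead of the genes for small nuclear RNAs and for spliced leader RNAs. Ribosomal protein genes are transcribed by RNA polymerase II, are among the most highly expressed genes of growing cells, and often carry small nucleolar RNA (snoRNA) genes in their introns. A spliced leader is joined to the start of many nematode messenger RNAs and replaces the sequence before it. The annotated start of such a gene is then the splice site of the leader, which lies downstream of the place where transcription begins.

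The data were 2 ChIP-seq libraries, biological replicates 1 and 2 of 1 group, from whole mixed-stage embryos of mixed sex of the C. elegans strain OP179. Both libraries share the genotype of this strain, unc-119(ed3) III with the transgene wgIs179, from which eGFP-tagged SNPC-4 is made. Whether the antibody, whose target is labelled snpc-4, recognises eGFP or SNPC-4 is not stated, and the control that the labels mention was not analysed here. Each replicate and the pool of both had a deposited list of 30000 candidate regions on the genome build ce11, each with a summit and a signal value, and the read depth behind them is unknown. The signal has the authors' own scale, so regions are compared between lists by rank, where rank 1 is the highest signal. A region was called strong when it was in the top 3.66% of its list by signal, which gives as many regions as the thresholded list that the authors deposited for the build ce10. In the pooled list the signal ran between 6.66 and 4060 with a median of 9.63, and strong regions had at least 31.3. The intervals in parentheses below are Wilson's 95% intervals, which cover counting error only, and genes are not replicates.

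Strong SNPC-4 regions lay within 500 bp of the body of 37 of the 78 ribosomal protein genes, upstream at 36 of them. That share was 47.4% (36.7 to 58.4%), against 4.9% of all protein-coding genes, which here include the 78. With each region given to the nearest gene of any kind alone, the count was 18. The share of all protein-coding genes under that rule is not given here, and the 4.9% does not apply to it. Any pooled candidate region lay within 500 bp of 74 ribosomal protein genes (94.9%), against 61.8% of all protein-coding genes. The median signal of the best pooled region was 31.7 at ribosomal protein genes with a region, against 11.6 at all protein-coding genes with a region. In ranks these medians were 1082 at ribosomal protein genes and 9666 at all protein-coding genes. The replicate lists were read in the same way, each with its own strong set. In replicate 1 a strong region lay within 500 bp of 32 ribosomal protein genes (41.0%), against 4.76% of all protein-coding genes. In replicate 2 the count was 35 (44.9%), against 4.95%. A strong region in the pooled and both replicate lists was found at 22 ribosomal protein genes (28.2%, 19.4 to 39.0%), against 3.01% of all protein-coding genes.

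The strong summits lay ahead of the annotated gene start. Of the 37 genes, 36 (97.3%) had the summit upstream of the start, against 46.2% of the 980 protein-coding genes with a strong region within 500 bp. The median distance upstream was 285 bp at ribosomal protein genes (quartiles 235 and 381 bp, range 29 to 470 bp), against 214 bp at all protein-coding genes (quartiles 147 and 319 bp). A strong summit 201 to 500 bp upstream of the start, a window that does not depend on gene length, was found at 31 ribosomal protein genes (39.7%, 29.6 to 50.8%), against 1.32% of all protein-coding genes. In the 100 bp bin between 300 and 201 bp upstream the share was 21.8% at ribosomal protein genes, against 0.601% at all protein-coding genes. Over all protein-coding genes the fullest bin was the next one towards the gene, with 0.786%. Farther away, between 501 and 1500 bp upstream, a strong summit was found at 1 ribosomal protein gene (1.28%), against 1.56% of all protein-coding genes. Where transcription starts was not measured, so the distance is from the annotated start alone.

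**Figure D1:**
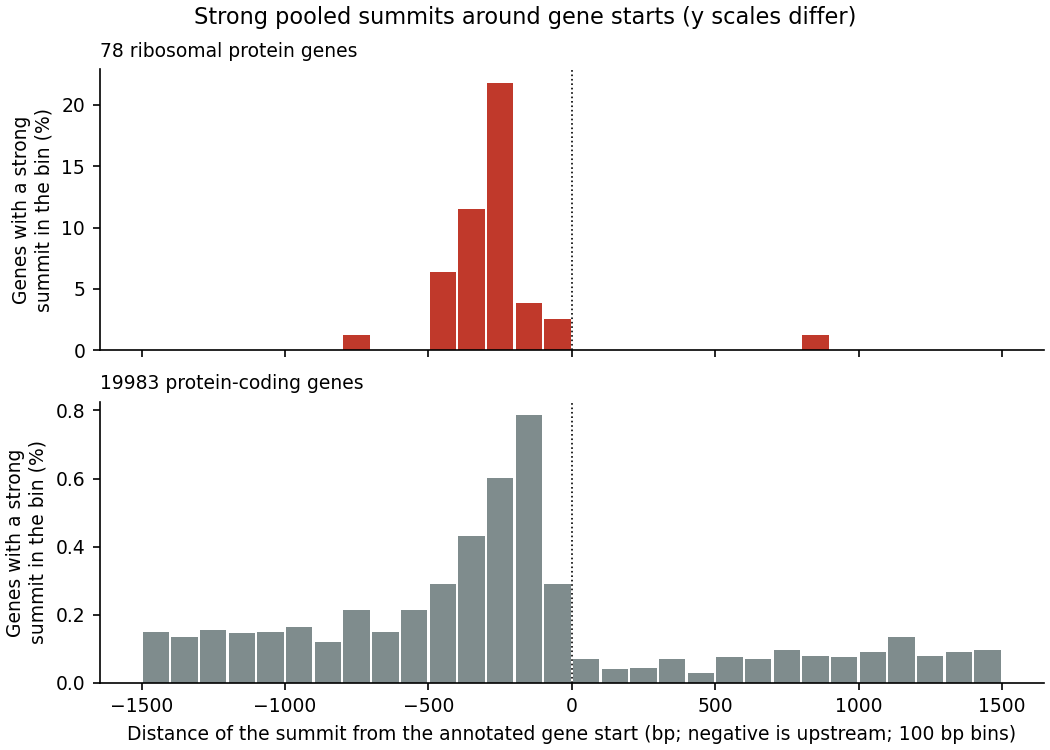
Share of genes (y axis, %) with a strong pooled summit in each 100 bp bin of distance from the annotated gene start (x axis, bp, negative is upstream), for ribosomal protein genes above and all protein-coding genes below, on different y scales. The ribosomal protein genes reach 21.8% in the bin 300 to 201 bp upstream and have no strong summit between 0 and 799 bp downstream of the start.

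A window of 200 bp around the gene body missed most of these regions. Within 200 bp a pooled region of any strength lay at 38 ribosomal protein genes (48.7%, 37.9 to 59.6%), against 53.3% of all protein-coding genes, and regions in all 3 lists lay at 20 (25.6%), against 33.4%. These genes are short, with a median length of 747.5 bp against 2005 bp for all protein-coding genes, so a window around the body holds fewer positions. Per 100 kb of gene body with its window the direction was the other way, with 52.1 pooled regions at ribosomal protein genes and 28.9 at all protein-coding genes. The same density was 56.5 at ribosomal protein genes against 29.7 at all protein-coding genes in replicate 1, and 36.9 against 29.0 in replicate 2. The window makes up a larger part of that length at short genes, so the densities compare unlike mixes of gene body and flank. A strong region lay within 200 bp of 5 ribosomal protein genes (6.41%, 2.77 to 14.1%), against 3.21% of all protein-coding genes, and at 3 of them it was strong in all 3 lists (3.85%), against 1.92%. Counted around the gene start alone, 18 ribosomal protein genes had any region within 200 bp (23.1%), against 18.7%, and the same 5 had a strong one (6.41%), against 1.18%. Of the 38 best pooled regions within 200 bp, 10 lay upstream, 15 in a coding exon, 1 in an untranslated exon, 3 in an intron and 9 downstream. Over all protein-coding genes with a region, the shares were 16.6% upstream, 25.6% coding exon, 9.79% untranslated exon, 37.3% intron and 10.7% downstream. All 5 strong ones at ribosomal protein genes were among the 10 upstream. Of the strong ones at all protein-coding genes, 32.6% lay upstream and 50.5% in an intron.

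The 5 genes with a strong region within 200 bp were rps-12, rpl-12, rps-27A, rpl-7A and rps-7. At rps-12, which encodes the small subunit protein eS12, the signal was 76.8 in the pooled list, 42.6 in replicate 1 and 30.8 in replicate 2, with ranks 254, 219 and 369. At rpl-12, which encodes uL11 of the stalk base where translation factors bind, it was 58.3 in the pooled list, 36.6 in replicate 1 and 21.7 in replicate 2. Both genes were strong in each list, with the pooled summit 143 bp upstream of rps-12 and 29 bp upstream of rpl-12. At rpl-7A, which encodes eL8, the signal was 36.2 in the pooled list, 17.3 in replicate 1 and 17.5 in replicate 2, also strong in each. At rps-27A, which encodes a ubiquitin-like protein fused to a small subunit protein, the pooled signal was 37.1, while within 200 bp replicate 2 had a region of 23.1, rank 573, and replicate 1 a different one of 6.05, rank 12039, with its summit 1172 bp from the pooled summit. The replicate 1 summit of its upstream region lay 230 bp from the start, outside the window, with signal 13.9 and rank 1633. At rps-7, which encodes eS7, the pooled signal was 32.5 and that of replicate 1 was 16.0, while replicate 2 had no region within 200 bp and had one of 11.5, rank 2558, with its summit 272 bp upstream. The member just outside the strong set was rps-2, which encodes uS5, with pooled signal 28.7 and rank 1301.

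The highest signals of all lay beyond 200 bp. At rpl-15, which encodes eL15, the signal was 131 in the pooled list, 66.0 in replicate 1 and 65.2 in replicate 2, with ranks 139, 131 and 151, and the pooled summit was 339 bp upstream. At rpl-3, whose product uL3 lies by the peptidyl transferase centre, it was 94.5 in the pooled list, 45.3 in replicate 1 and 44.7 in replicate 2, with ranks 191, 203 and 212, and the summit was 296 bp upstream. These genes held the highest and second highest place among ribosomal protein genes in each list. At rpl-18A, which encodes eL20, the signal was 62.8 in the pooled list, 36.1 in replicate 1 and 26.5 in replicate 2, with the summit 280 bp upstream. At rpl-11.2, which encodes one of the forms of uL5, a protein that binds 5S ribosomal RNA, it was 61.2 in the pooled list, 32.7 in replicate 1 and 26.1 in replicate 2, with the summit 408 bp upstream. The other form, rpl-11.1, was the member with no region within 500 bp in any of the 3 lists. At rpl-5, which encodes uL18, another 5S-binding protein, the signal was 51.8 in the pooled list, 26.0 in replicate 1 and 25.0 in replicate 2, with the summit 380 bp upstream. These genes with regions beyond 200 bp were named after their values were seen.

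The bases around 7 of these summits are shown so that the strong regions described above can be read as sequence. They were read from the RefSeq genome WBcel235 (ce11) on the strand of the gene, 5′ to 3′, 75 bases either side of the pooled summit, cut back where an annotated exon began. The summit is base 76 of each stretch. Capitals mark the word AAATCG or ACCGTA, read on either strand. Of 2080 words of 6 letters, both strands merged, these 2 had the greatest excess in share at strong regions of ribosomal protein genes over all candidate regions. They were picked for that excess, so their shares are a description with no test. Stretches, in order of pooled signal, lie at chrIV:654840-654990 (rpl-15, minus strand), chrIII:3867483-3867633 (rpl-3, plus), chrIV:4749983-4750133 (rpl-18A, minus), chrX:2242951-2243101 (rpl-11.2, minus), chrIV:13240652-13240755 (rpl-12, minus), chrIII:3068044-3068194 (rps-27A, plus) and chrIV:4390594-4390744 (rpl-7A, minus).
rpl-15: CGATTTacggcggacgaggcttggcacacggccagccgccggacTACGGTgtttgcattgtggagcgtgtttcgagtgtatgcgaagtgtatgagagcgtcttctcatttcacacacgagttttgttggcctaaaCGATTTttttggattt
rpl-3: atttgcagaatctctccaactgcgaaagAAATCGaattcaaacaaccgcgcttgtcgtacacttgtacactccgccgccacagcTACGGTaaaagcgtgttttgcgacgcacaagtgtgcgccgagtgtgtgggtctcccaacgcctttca
rpl-18A: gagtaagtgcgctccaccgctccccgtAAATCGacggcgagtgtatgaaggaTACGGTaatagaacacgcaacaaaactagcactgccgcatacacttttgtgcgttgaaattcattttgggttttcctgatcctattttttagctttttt
rpl-11.2: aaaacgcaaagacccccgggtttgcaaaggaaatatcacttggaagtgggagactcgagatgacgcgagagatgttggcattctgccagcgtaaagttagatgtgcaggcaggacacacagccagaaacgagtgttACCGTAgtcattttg
rpl-12: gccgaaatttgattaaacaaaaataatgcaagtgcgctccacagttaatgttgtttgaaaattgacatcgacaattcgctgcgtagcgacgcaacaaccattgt
rps-27A: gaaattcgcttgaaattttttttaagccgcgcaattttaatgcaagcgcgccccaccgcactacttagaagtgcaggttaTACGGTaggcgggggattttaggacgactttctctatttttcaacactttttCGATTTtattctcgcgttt
rpl-7A: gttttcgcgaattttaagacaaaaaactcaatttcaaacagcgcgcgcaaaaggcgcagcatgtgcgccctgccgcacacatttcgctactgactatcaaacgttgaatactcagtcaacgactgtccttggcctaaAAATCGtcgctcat

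The word AAATCG was found within 100 bp of the summit in 26 of the 35 distinct strong regions at ribosomal protein genes (74.3%), against 16.0% of the 1064 other strong regions and 18.8% of all 30000 candidate regions. ACCGTA was found in 18 of the 35 (51.4%), against 7.24% of the other strong regions and 5.78% of all candidates. At least 1 of the words was present in 32 of the 35 regions and both were present in 12. These are the regions from which the words were picked, and the same counts at other regions are not given here. In the stretches above, AAATCG stands in 5 and ACCGTA in 5 of 7, and the stretch at rpl-12 holds neither. The sequence CTGTTTCA, searched on both strands in the same 201 bases, was found in 0 of the 35 regions, against 0.637% of all strong regions and 1.87% of all candidates. With at most 1 mismatch it was found in 8 (22.9%), against 15.7% of strong and 24.0% of all candidate regions. The median GC content of these windows was 42.3% at ribosomal protein genes (quartiles 38.1 and 44.5%), against 47.3% at all strong regions and 35.8% at all candidates. A match is a description of letters, not a binding site.

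**Figure D2:**
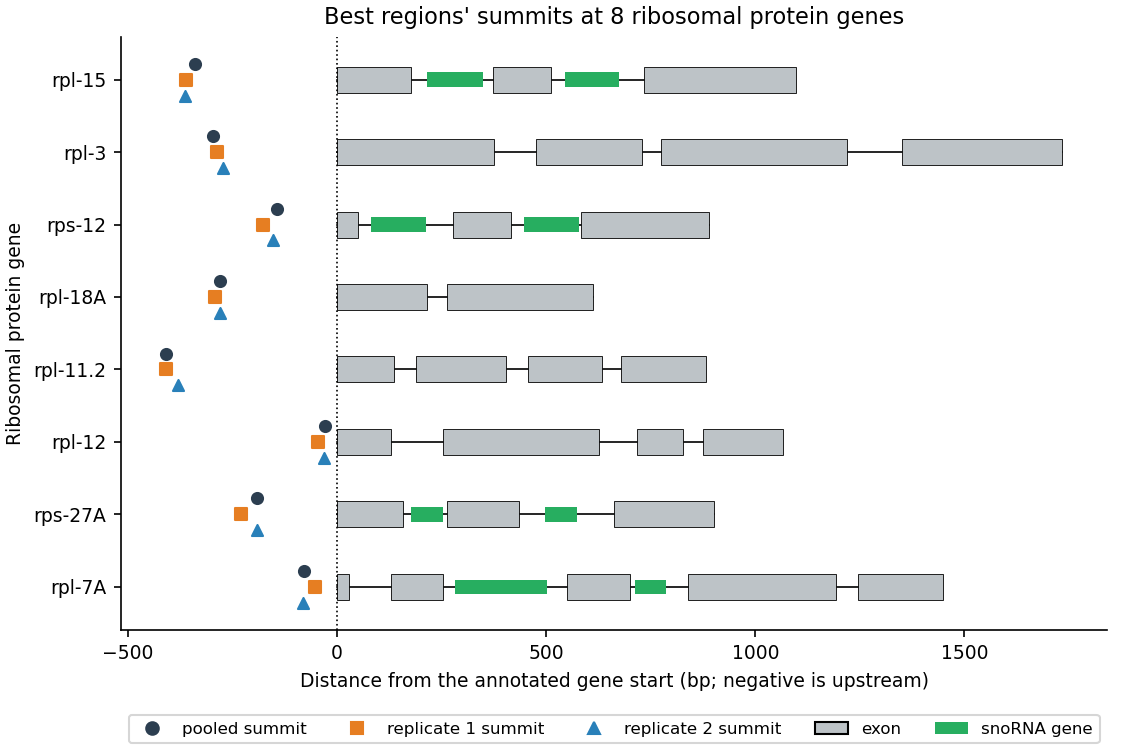
Exons (grey boxes), introns (lines) and snoRNA genes (green) of 8 ribosomal protein genes with the summits of the best region within 500 bp in the pooled list (circle), replicate 1 (square) and replicate 2 (triangle), by distance from the annotated gene start (x axis, bp). All summits lie left of the start, and the snoRNA genes lie to its right, within the introns.

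Intronic snoRNA genes did not lie at these summits. The 78 genes held 23 snoRNA genes of the same strand in 15 hosts, and 0 of the 23 had a strong summit within 200 bp, which allows a share of up to 14.3% by Wilson's interval, against 17.3% of all 346 snoRNA genes. Among the 180 snoRNA genes inside a protein-coding gene of the same strand, 15 (8.33%) had one. Over all snoRNA genes with a strong summit within 200 bp, that summit lay at a median of 48.5 bp upstream of the 5′ end (quartiles 60 and 37 bp upstream, 60 genes). The 200 bp limit bounds these distances in advance, so the longer distances below cannot be compared with them. At rps-12, whose region is the strongest of those within 200 bp, the nearer snoRNA gene F54E7.10 began 223 bp downstream of the summit. At rpl-15 the nearer of its snoRNA genes, K11H12.13, began 554 bp downstream. Hosts of snoRNA genes had a strong region within 500 bp in 8 of 15 cases (53.3%) and ribosomal protein genes without one in 29 of 63 (46.0%), a difference that was not tested. Within 200 bp the counts were 3 of the 15 hosts (rps-12, rps-27A and rpl-7A) and 2 of the 63 others, which was not tested either.

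Among weak regions a few summits did lie beside a small RNA gene. The best pooled region within 200 bp lay near one at 5 genes, and none of the 5 was strong. The share of all protein-coding genes under this rule is not given here, so the count has no comparison. At rpl-7, which encodes uL30, the summit lay inside the snoRNA gene F53G12.12, with pooled signal 11.1 and rank 10557. Replicate 2 had a region there, its summit 38 bp away, with signal 7.15, while the best region of replicate 1 (5.24) was a different one, its summit 920 bp away. At rpl-6, which encodes eL6, the pooled summit lay 60 bp from the snoRNA gene R151.11, with signal 7.30 and rank 25855. Replicate 2 had no region within 200 bp of rpl-6, and the best one of replicate 1 had its summit 925 bp away. At rps-23, which encodes uS12 of the decoding site, the pooled summit lay 129 bp from F28D1.13, with signal 11.3. Replicate 2 had a region there, its summit 45 bp away, and replicate 1 had none within 200 bp of the gene. At rpl-24, which encodes eL24, and at rps-20 the neighbour was a microRNA gene, mir-353 at 79 bp (signal 14.7) and mir-354 at 69 bp (signal 6.97). The best replicate summits at rpl-24 lay 154 bp (replicate 1) and 206 bp (replicate 2) from the pooled one. Neither replicate had a region within 200 bp of rps-20, and its pooled signal was near the lowest of the list, 6.66. For the strong regions within 500 bp, small RNA genes lay within 200 bp of the summit at 2 genes, a snoRNA gene 134 bp away at rps-26 and a piRNA gene 123 bp away at rpl-34. Another 6 had a non-coding RNA gene of another kind there, and any part these genes have in the signal was not tested.

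Large and small subunit genes were alike in the share with a strong region within 500 bp, 23 of 48 (47.9%) for the large and 14 of 30 (46.7%) for the small subunit. By chromosome the counts were 12 of 23 on chromosome I, 4 of 11 on II, 11 of 18 on III, 9 of 17 on IV, 0 of 7 on V and 1 of 2 on X. All protein-coding genes had shares between 3.32% on V and 6.34% on X. With 7 genes on V, Wilson's interval for 0 is wide, and no difference between chromosomes was tested. The authors' thresholded list for ce11 holds chromosome I alone. Of the 23 ribosomal protein genes there, 15 had a thresholded peak within 500 bp (65.2%, 44.9 to 81.2%), against 7.82% of protein-coding genes of that chromosome, and 10 of these 15 were also among the 12 strong ones. Within 200 bp the count was 0 of 23, against 4.28%. The strongest of the 15 was rps-19, which encodes eS19, with signal 73.0 in the pooled list, 39.7 in replicate 1 and 29.2 in replicate 2, and with its summit 294 bp upstream. Next was rps-20, which encodes uS10, with 64.0 in the pooled list, 25.0 in replicate 1 and 39.2 in replicate 2.

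**Figure D3:**
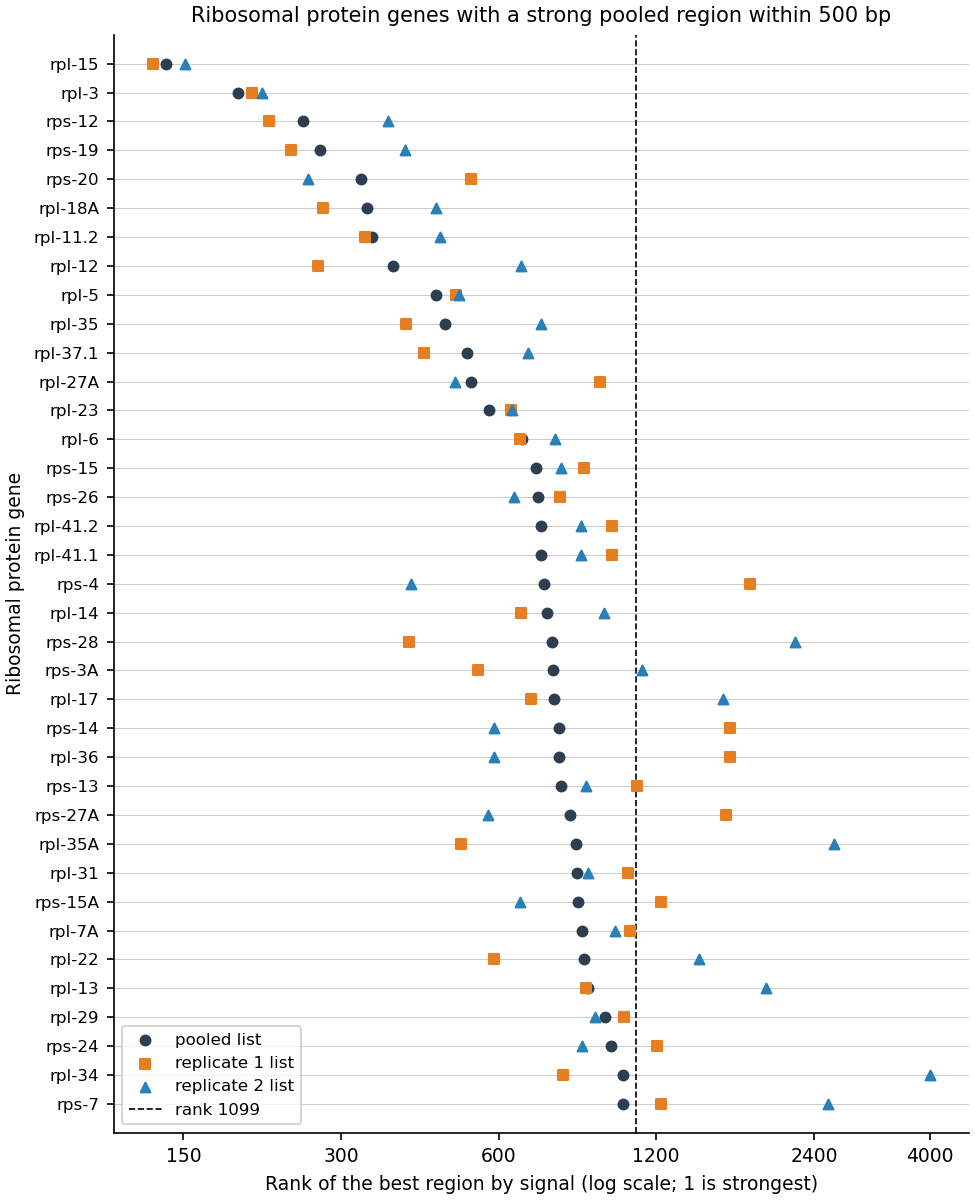
Rank of the best region within 500 bp (x axis, log scale, 1 is the highest signal) for the 37 ribosomal protein genes with a strong pooled region (y axis), in the pooled list (circle), replicate 1 (square) and replicate 2 (triangle). The dashed line is the edge of the strong set, and 22 genes lie left of it in every list.

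All 37 genes with a strong pooled region had a region within 500 bp in both replicates, with signals between 13.2 and 66.0 in replicate 1 and between 9.81 and 65.2 in replicate 2. At these 37 genes the replicate summits lay a median of 23 bp apart and at most 114 bp, and at the 22 of them strong in every list a median of 20 bp and at most 85 bp. At the 27 genes with a region in both replicates and no strong pooled one, the median was 85 bp, and at 8 of them the best regions of the replicates were over 500 bp apart, at most 1241 bp, as at rps-11. Over the 64 ribosomal protein genes with a region in both replicates, Spearman's rho between the signals of the best regions, which need not be the same region in both, was 0.52, a description across genes that share the same libraries. Within 200 bp it was 0.24 over 22 genes. Among the 37 genes the replicate ranks lay farthest apart at rpl-34, with rank 796 in replicate 1 and 3997 in replicate 2, followed by rpl-35A, with rank 508 in replicate 1 and 2626 in replicate 2. At rps-4 the order ran the other way, with rank 1815 in replicate 1 and 409 in replicate 2. A strong region in at least 1 of the 3 lists was found at 46 genes. The share of all protein-coding genes under this looser rule is not given here, so the count has no comparison.

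**Figure D4:**
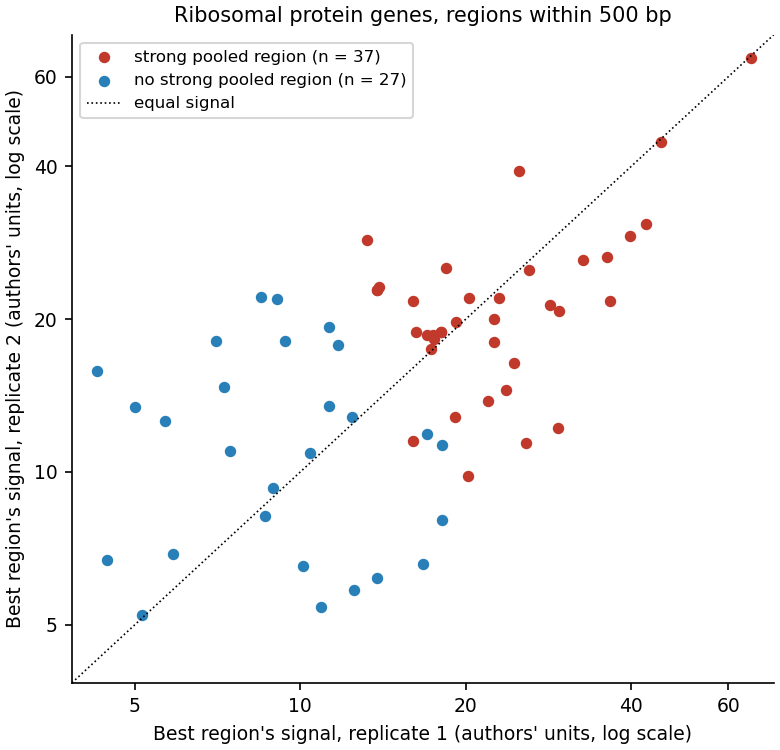
Signal of the best region within 500 bp in replicate 1 (x axis) and replicate 2 (y axis), both in the authors' units on log scales, for ribosomal protein genes with a region in both replicates, 37 with a strong pooled region (red) and 27 without (blue). The dotted line marks equal values, though the scales of the lists are the authors' own. The 2 points at the top right are rpl-15 and rpl-3.

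Several strong regions lie between neighbouring genes. At 22 of the 37 genes another protein-coding gene started within 500 bp of the summit, and at 13 it started nearer than the ribosomal protein gene itself. The same counts for all protein-coding genes with a strong region are not given here, so this is not shown to be particular to ribosomal protein genes. With each region given to the nearest gene of any kind, 18 of the 37 kept a strong region. At rps-20, for example, the summit lay 232 bp upstream of rps-20 and 165 bp upstream of the neighbour ekl-4. Which of the genes such a region belongs to cannot be told apart from these lists. The 37 genes shared 35 distinct regions. The divergent pair rps-14 and rpl-36 had the same region, with signal 38.0, 236 bp upstream of rps-14 and 427 bp upstream of rpl-36. The tandem pair rpl-41.1 and rpl-41.2 had another, with signal 39.8, upstream of rpl-41.2 by 229 bp and downstream of rpl-41.1. These 35 regions made up 3.18% of the strong set.

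Other genes of translation were described in the same way. Mitochondrial ribosomal protein genes (mrpl-, mrps-) had a strong region within 500 bp in 3 of 71 cases (4.23%), near the 4.9% of all protein-coding genes. Translation factor genes had one in 8 of 41 (19.5%) and aminoacyl-tRNA synthetase genes in 1 of 32 (3.12%). Among 10 snoRNP and nucleolar protein genes there were 3 (30.0%). The 4 genes of the ribosomal stalk, which carry the prefix rplp- here and so fall outside the 78, had none. None of these lists was tested against the ribosomal protein genes.

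**Figure D5:**
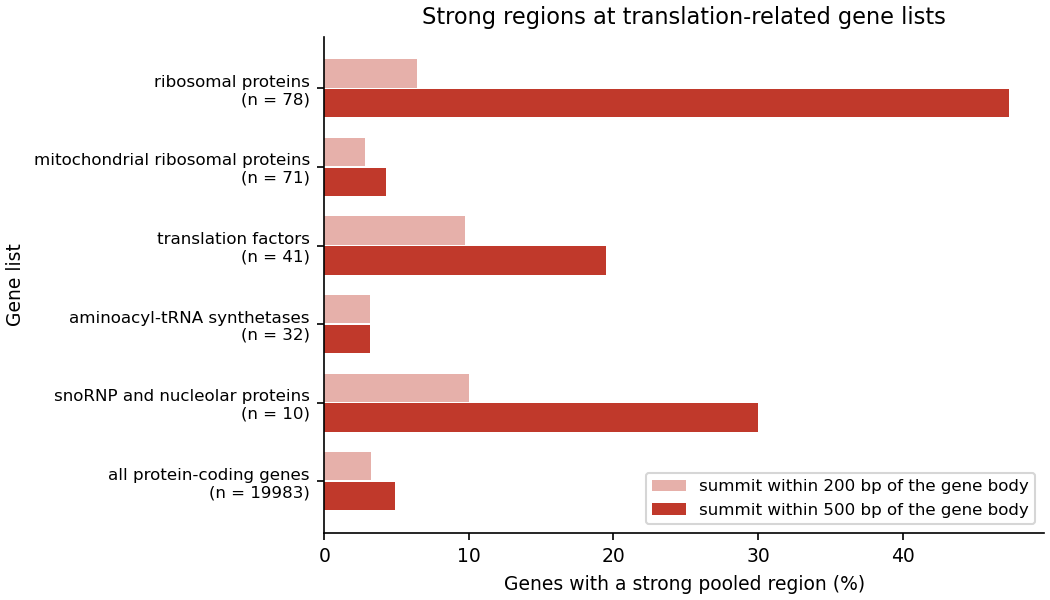
Share of genes with a strong pooled region (x axis, %) whose summit lies within 200 bp (light bars) or 500 bp (dark bars) of the gene body, by gene list (y axis). At ribosomal protein genes the share is 6.41% at 200 bp and 47.4% at 500 bp, and at all protein-coding genes it is 3.21% and 4.9%.

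Ribosomal protein genes without a strong pooled region mostly had a weaker one within 500 bp. Its summit lay upstream of the start at some genes, and within or downstream of the gene at others. Just outside the strong set were rps-21, which encodes eS21, with pooled signal 30.8 and rank 1125, and rpl-7, with signal 30.8 and rank 1127. Their summits lay 253 bp upstream of rps-21 and 307 bp upstream of rpl-7. In all, 11 genes had their best pooled region in the next stretch of the list, of the same length as the strong set, and 23 had it between the strong set and rank 5000. A further 14 had their best region beyond rank 5000, and 4 had no pooled region within 500 bp, rpl-10L, rpl-11.1, rps-5 and rps-11. Within 200 bp, 23 genes had no region in any list: rpl-11.1, rpl-11.2, rpl-14, rpl-15, rpl-19, rpl-22, rpl-23, rpl-35, rpl-36A, rpl-37A, rpl-41.2, rps-3, rps-3A, rps-4, rps-6, rps-9, rps-11, rps-14, rps-15A, rps-19, rps-24, rps-28 and rps-29. The share of all protein-coding genes without any such region is not given here, and several of the 23, such as rpl-15, had a strong region within 500 bp. The rest of those with a region within 200 bp that rank highest after the strong ones had lower pooled signals. These were 20.8 at rpl-23A.2, 20.4 at rpl-13, 20.2 at rpl-27, 19.5 at rpl-18 and 16.0 at rpl-26. Below them came 15.8 at rps-27, 14.4 at rps-18, 13.8 at rpl-29 and 13.7 at rpl-23A.1. Of these genes, rpl-13 and rpl-29 had another region within 500 bp that was strong, with signals 35.6 and 34.2. The summits listed lay upstream at rpl-23A.2 and rpl-23A.1, and within or downstream of the gene at the others. Within 200 bp, rpl-23A.1 had no region in either replicate, rpl-23A.2 none in replicate 2 and rps-27 none in replicate 1.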

How the data were processed

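The libraries were ChIP-seq of eGFP-tagged SNPC-4 in mixed-stage embryos, biological replicates 1 and 2 of 1 group. The authors deposited lists of candidate regions (peaks and background for input to IDR, irreproducible discovery rate) for each replicate and for both pooled, called against a control, and lists of peaks past their IDR threshold. The deposited signal value of each region ranked regions within a list, and its scale is not stated. The deposited summit distance, in bp from the region start, gave the summit. Which aligner, peak caller and IDR settings they used is not stated in the labels or the files. Because their thresholded list for ce11 is limited to chromosome I, strong regions were defined as the top 3.66% of each candidate list, the number of peaks in their thresholded ce10 list.

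For each gene the region with the highest signal and a summit within 200 bp of the RefSeq gene body was taken, in Python 3.11.15 with pandas 2.3.3 and numpy 2.4.6. Assignment was tested on simulated regions. The members and lists were chosen with earlier results of these data known. The 500 bp window had been listed among other settings and was made a result of its own after the lists had been seen, as were the 100 bp bins and the 6-letter words. Named genes were those with a strong region within 200 bp, those whose best region there lay within 200 bp of a small RNA gene, and the next highest until 20 were named. All values are descriptions with no test, since 1 group with 2 libraries allows no comparison of conditions. The label gives a fragment size range of 150 to 350. The depth is unknown, so no precision beyond counting error is given. Candidate lists for ce10 were not used here, because the annotation fits ce11. Sequences are printed for 7 of the strong regions, and those of the others are not reported here.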

Additional observations from a re-analysis of the deposited data

How the results depend on the processing

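Of 55 values recomputed under other settings, 31 stayed within 1.5 times the reported count or within the stated spread and 24 did not. For the 5 genes with a strong region within 200 bp, the count was 2 with 100 bp, 37 with 500 bp, 2 with the top 1.83% of regions as the strong set and 0 with the thresholded list, and between 3 and 7 with 1 replicate list left out. The thresholded list holds chromosome I alone, where only rps-7 of the 5 genes lies, so it could not have counted the others. The 38 genes with any pooled region became 74 with 500 bp and 18 around the gene start alone. The 20 genes with a region in all 3 lists became 11 with 100 bp, 63 with 500 bp, 5 around the gene start, 12 with each region given to its nearest gene, 12 where the replicate regions had to overlap the pooled one by 1 bp, 6 where they had to overlap it by 50%, and between 31 and 43 with 1 replicate left out, which asks for fewer lists. The median signal of 11.8 became 31.7 with 500 bp and 10.4 around the gene start, and between 6.52 and 7.91 with 1 replicate left out, on that replicate's own scale. Strong regions near a small RNA gene, 0 of 5, became 2 with 500 bp around the gene and 3 with small RNA genes up to 500 bp from the summit. The 37 genes with a strong region within 500 bp became 12 with the top 1.83% of regions as the strong set, 18 with each region given to its nearest gene and 15 with the thresholded list, which covers 23 of the 78 genes. That count was 48 with the top 7.33%, 35 without regions near a small RNA gene, 38 with 1000 bp, 37 with Ensembl gene bodies (63 of 78 genes found by name) and between 32 and 35 with 1 replicate left out. Except where stated in the results above, the share of all protein-coding genes under these other settings is not given here. Counts without that share have no comparison. The causes of these shifts were not tested.

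No paired analysis was possible because the study has 1 group. The read depth and the control are not known here, so weak regions cannot be told from background. How reads at near-identical gene copies were placed is not known here either.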
